A study of Mus musculus with 16 samples.

Results

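The 10 genes of the MAP kinase feedback loop followed in DN3 thymocytes were the dual-specificity phosphatases Dusp1, Dusp2, Dusp4, Dusp5, Dusp6 and Dusp10, and the Sprouty and Spred genes Spry1, Spry2, Spred1 and Spred2. They were chosen by name as the inducible phosphatases and adaptors of the loop, and all 10 were found among the 22114 genes of each count table. The choice was made with earlier results of these data known. DN3 thymocytes are immature T-cell progenitors that lack CD4 and CD8, carry CD25 and are about to test their pre-T-cell receptor. The 4 genotypes on the C57BL/6 background were compared as total DN3 cells: wild-type (WT, 3 libraries), p21-/- (2 libraries), Lmo2Tg (2 libraries, which the count table names L2 and L3) and Lmo2Tg;p21-/- (2 libraries). Lmo2Tg mice carry the T-cell oncogene Lmo2 under CD2 control, so the transgene acts in T-lineage cells, and p21-/- mice lack the cell-cycle inhibitor p21, the product of Cdkn1a. A second experiment used H2B-GFP;Lmo2Tg mice, also on the C57BL/6 background. Their DN3 cells were sorted into GFPhi and GFPlo cells (3 libraries each) after 6 weeks of doxycycline and a chase of 2 weeks. Cells which divided little thus kept the H2B-GFP label. All GFPhi and GFPlo libraries therefore carry the Lmo2 transgene and the H2B-GFP allele, and no library of that experiment lacks Lmo2Tg. The mice of the 4 genotypes were 6 weeks old and the labelled mice 2 months old, and the methods describe RNA for global expression as pooled from 3 to 5 mice, so that a library is an average over animals. The genotype table has a further column, named like a further Lmo2Tg;p21-/- library, that matched no sample label and was not used.

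The members of the loop act at successive points of one cascade. Growth factor and antigen receptors load RAS with GTP, RAS starts the RAF, MEK and ERK kinases, and ERK in turn switches on transcription of its own inhibitors. Dual-specificity phosphatases take the phosphates off ERK, p38 or JNK, whereas Sprouty and Spred proteins restrain RAS and RAF further up. In DN3 cells this cascade lies downstream of the pre-T-cell receptor, and transcripts of the feedback genes are widely read as a record of recent pathway activity.

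Total counts ranged from 13864936 to 16837667 per genotype library and from 26861394 to 31106213 per GFP library, so that 3 counts, the smallest level taken as measurable, came to at most 0.222 and 0.112 CPM (counts scaled by TMM library size). The DN3 markers were present in every library, with none of the 10 at 0 and a summed level of 5285 to 8569 CPM. Lmo2 was near 0 in WT and p21-/- libraries (0.0636 to 0.306 CPM) and lay between 41.4 and 107 CPM in the 4 transgenic genotype libraries. Cdkn1a lay at 36.5 to 49.0 CPM in WT, 14.3 to 17.7 in p21-/-, 26.3 to 32.8 in Lmo2Tg and 3.50 to 4.35 in Lmo2Tg;p21-/- libraries, which follows the labels although reads remained in p21-/- libraries. GFPhi replicate 3 stood apart from GFPhi replicates 1 and 2: it scored -52.26 on the second principal component (27.1% of the variance) where they scored 32.42 and 34.93, and its Lmo2 level was 285 CPM against 29.5 and 53.8. Its Cdkn1a level was 6.56 CPM against 35.8 and 29.9, below all GFPlo libraries (12.02, 11.1 and 8.08 CPM), and Cdkn1a was called higher in GFPhi only without it (1.21 and 1.67 on the log2 scale with and without it, edgeR adjusted p = 0.207 and 0.000624). Counts of called members are therefore given with and without this library.

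The stretch before the start site is shown for the 5 members that were more than 2-fold higher in Lmo2Tg than in WT cells and have an entry in the RefSeq promoter table (GRCm38.p6), which held 9 of the 10 members. Each line runs 5′ to 3′ from 250 to 51 bases before the annotated start and ends ahead of the untranslated region. Capitals mark matches, on either strand, to the cAMP response element (TGACGTCA) or the first bases of it (TGACG), the EGR site (GCGNGGGCG) and the CArG box, the element bound by serum response factor.
Dusp5, chr19:53528895-53529094, plus strand: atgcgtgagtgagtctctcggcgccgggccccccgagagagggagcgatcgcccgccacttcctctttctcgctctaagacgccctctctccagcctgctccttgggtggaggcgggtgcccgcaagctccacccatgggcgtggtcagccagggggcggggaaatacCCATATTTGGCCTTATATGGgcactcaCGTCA
Dusp2, chr2:127335909-127336108, plus strand: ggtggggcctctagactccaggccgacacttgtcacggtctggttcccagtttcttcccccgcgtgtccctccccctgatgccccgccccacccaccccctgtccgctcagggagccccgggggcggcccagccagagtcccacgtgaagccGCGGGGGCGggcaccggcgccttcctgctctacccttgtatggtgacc
Dusp1, chr17:26508523-26508722, minus strand: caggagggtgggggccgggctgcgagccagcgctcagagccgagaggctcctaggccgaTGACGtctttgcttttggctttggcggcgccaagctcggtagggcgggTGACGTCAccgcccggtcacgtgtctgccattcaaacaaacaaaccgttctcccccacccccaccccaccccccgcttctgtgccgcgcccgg
Dusp6, chr10:99262981-99263180, plus strand: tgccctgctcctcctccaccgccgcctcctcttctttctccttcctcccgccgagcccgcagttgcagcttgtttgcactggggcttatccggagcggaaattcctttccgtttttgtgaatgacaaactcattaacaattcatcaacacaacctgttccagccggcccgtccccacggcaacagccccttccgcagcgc
Spry1, chr3:37639697-37639896, plus strand: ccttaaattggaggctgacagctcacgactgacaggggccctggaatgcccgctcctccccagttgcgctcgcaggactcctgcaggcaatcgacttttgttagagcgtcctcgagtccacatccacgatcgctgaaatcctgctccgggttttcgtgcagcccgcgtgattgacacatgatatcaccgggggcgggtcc
The letters differ between the members rather than repeat. Dusp5 holds 2 adjoining CArG boxes, starting 82 and 72 bases before the start, and was the only one of the 9 members with a CArG box in this window, against 1.16% of 32851 promoters searched in the same way. Dusp1 holds a full cAMP response element starting 143 bases before the start (0.828% of all promoters), and Dusp1 and Dusp5 hold the shorter TGACG form (12.7% of all promoters). Dusp2 holds an EGR site (3.04% of all promoters). The AP-1 letters TGANTCA (5.57% of all promoters), the ETS letters CCGGAAG (3.98%), the GATA letters AGATAA (8.42%) and the NFAT letters TGGAAA (15.8%) were in none of the 9 windows, and the E-box CANNTG (59% of all promoters) was in 5. Downstream of these windows, exons of Dusp5 share 547 bases with the antisense gene AC137853.2 and exons of Spry1 share 710 bases with Gm42922 on the other strand. These matches describe letters only, and no binding was measured.

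Against WT, most genes of the feedback loop were higher in Lmo2Tg DN3 cells. Of the 10 members, 8 rose, all but Spry2 and Spred1, in edgeR's quasi-likelihood test at an adjusted p below 0.05 and none fell, where 36.6% of all 11840 genes tested were called in either direction and 19.7% were called higher. The median log2 fold change of the 10 was 1.03, against -0.01 over all genes tested. The 10 together came to 1250 and 1282 CPM in the Lmo2Tg libraries and to 265.4 to 382.7 CPM in the WT libraries, a difference carried mainly by Dusp5, Dusp2 and Dusp1. The rise rests on 2 Lmo2Tg libraries. In the 6 GFPhi and GFPlo libraries, which also carry the transgene, the 10 came to 473.0 to 548.3 CPM. Dusp5 was at 66.8 to 135 CPM there. Those libraries come from labelled mice of another experiment and were scaled apart, and the difference from L2 and L3 was not tested.

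**Figure D1:**
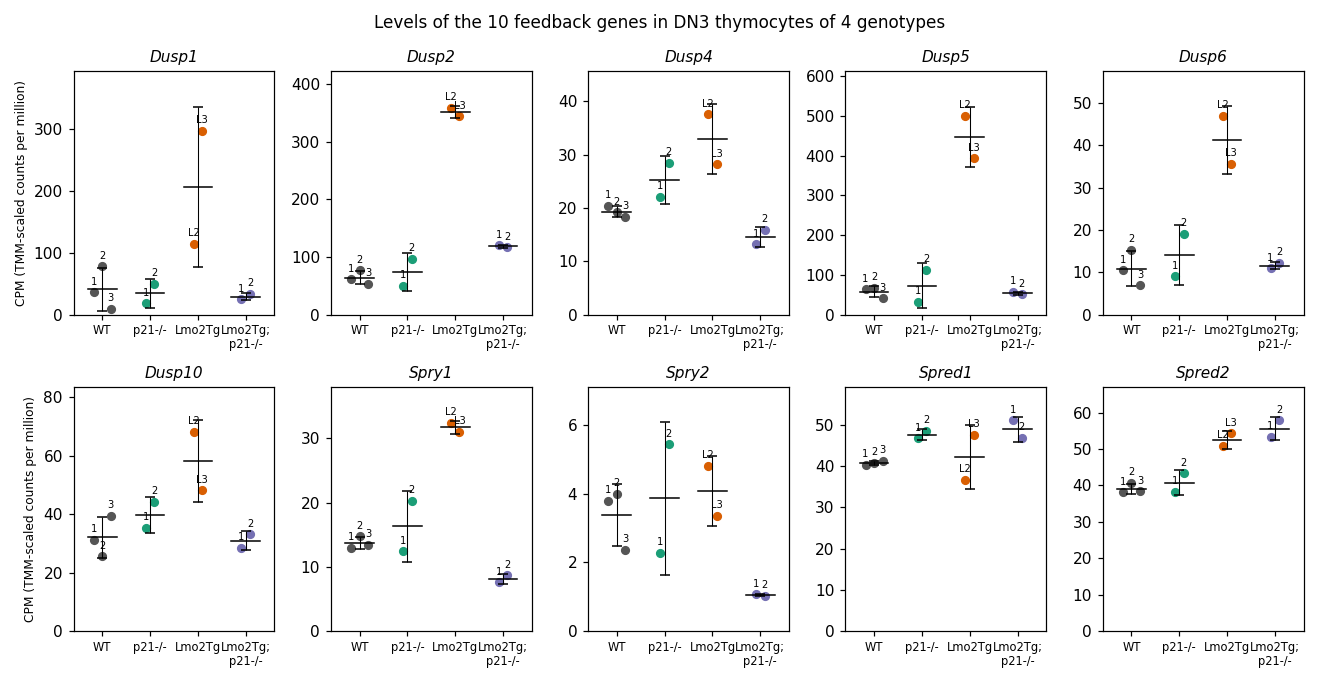
TMM-scaled CPM (vertical axis, from 0) of the 10 feedback genes in each genotype library. Points are libraries with their number, lines are group means and bars are SD. Lmo2Tg libraries reached 393 and 500 CPM for Dusp5 and 344 and 358 CPM for Dusp2, above all other libraries, whereas Spred1 stayed between 36.7 and 51.1 CPM throughout.

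Among the nuclear phosphatases, Dusp5 changed most. Dusp5, which removes phosphates from ERK and holds it in the nucleus, was measured at 64.3, 67.1 and 41.7 CPM in WT and at 500 and 393 CPM in Lmo2Tg. The groups were far apart, and the rise was 7.74-fold (log2 fold change 2.95 ± 0.38, SE; edgeR adjusted p = 0.000177). In the annotation 547 exonic bases of Dusp5 overlap AC137853.2 on the other strand, and since no source states whether counting used strand, part of these reads could belong to the antisense gene. Dusp2, a phosphatase of lymphoid cells that acts on ERK and p38, stood at 61.6, 77.2 and 54.1 CPM in WT and at 358 and 344 CPM in Lmo2Tg. The Lmo2Tg libraries lay close together and well above WT, a rise of 5.46-fold (2.45 ± 0.21, edgeR adjusted p = 1.36e-05). Dusp4, a nuclear ERK and JNK phosphatase, rose less, from 20.4, 19.2 and 18.4 CPM to 37.6 and 28.2 CPM (0.77 ± 0.15, edgeR adjusted p = 0.00279).

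Dusp1, the immediate-early phosphatase of p38 and JNK, was the most uneven member. Its levels were 36.4, 78.1 and 9.38 CPM in WT and 114 and 297 CPM in Lmo2Tg, so that the groups did not overlap but each spread widely. The fitted log2 fold change was 2.32 with an interval from 0.89 to 3.75 (edgeR adjusted p = 0.0171). It was not called without Lmo2Tg library L3 (log2 fold change 1.47, edgeR adjusted p = 0.158) or without WT replicate 1 (2.24, edgeR adjusted p = 0.0528).

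Outside the nucleus the pattern held for Dusp6 and, more weakly, for Dusp10. Dusp6, the cytoplasmic phosphatase that is specific for ERK, was at 10.5, 15.3 and 6.96 CPM in WT and 47.0 and 35.6 CPM in Lmo2Tg, a 3.78-fold rise (1.92 ± 0.31, edgeR adjusted p = 0.000853). Dusp10 works on p38 and JNK rather than ERK. It went from 31.1, 25.6 and 39.4 CPM to 68.1 and 48.2 CPM (0.86 ± 0.19, edgeR adjusted p = 0.00467), and without library L2 this call was lost (0.59, edgeR adjusted p = 0.0612).

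The Sprouty and Spred genes did not move as one. Spry1, which blocks receptor signals on their way to RAS, was at 12.9, 14.8 and 13.4 CPM in WT and at 32.4 and 31.05 CPM in Lmo2Tg, a 2.31-fold rise with little spread in either group (1.21 ± 0.17, edgeR adjusted p = 0.000393). Spry1 shares 710 exonic bases with Gm42922 on the other strand, so its reads carry the same uncertainty as those of Dusp5. Spry2, its closest relative, was low throughout, at 3.80, 4.01 and 2.36 CPM in WT and 4.81 and 3.35 CPM in Lmo2Tg, with overlapping groups and an interval on the log2 scale from -0.53 to 1.06 (edgeR adjusted p = 0.597). Spred2, which restrains RAS together with neurofibromin, rose slightly and evenly, from 38.1, 40.6 and 38.3 CPM to 50.8 and 54.3 CPM (0.43 ± 0.09, edgeR adjusted p = 0.00295). Spred1 was at 40.4, 40.8 and 41.3 CPM in WT and 36.7 and 47.7 CPM in Lmo2Tg, with an interval from -0.19 to 0.28 (edgeR adjusted p = 0.755).

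In the 2 Lmo2Tg;p21-/- libraries most members were lower than in Lmo2Tg. In Lmo2Tg;p21-/- against Lmo2Tg cells 7 of the 10 members fell and none rose, where 6.94% of all genes tested were called in either direction and 3.59% were called lower. The median log2 fold change of the 10 was -1.70, against 0.02 over all genes. Their summed level was 368.1 and 377.8 CPM in the Lmo2Tg;p21-/- libraries, inside the range of the WT libraries. These libraries and those of the preceding comparison share the Lmo2Tg group, so the rise and the fall rest on the same L2 and L3 values. All results on Lmo2Tg;p21-/- cells rest on replicates 1 and 2. They were not checked against the unused column named like a further such library, and could change if it is one.

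**Figure D2:**
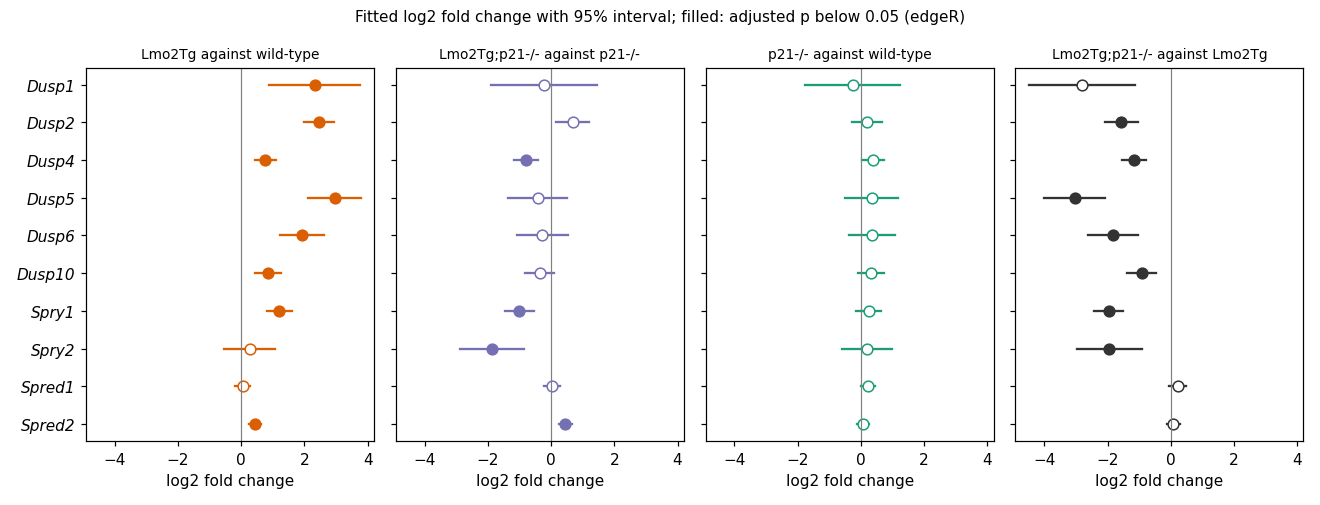
Fitted log2 fold change (horizontal axis) of the 10 feedback genes in 4 comparisons, with 95% intervals as lines and filled points where the edgeR adjusted p was below 0.05. Dusp5 stands at 2.95 in Lmo2Tg against WT and at -3.04 in Lmo2Tg;p21-/- against Lmo2Tg, and no point is filled in p21-/- against WT.

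Dusp5 fell most, to 57.1 and 51.8 CPM, which is 8.20-fold below the Lmo2Tg libraries (-3.04 ± 0.44, edgeR adjusted p = 0.00469). Dusp6 was at 10.99 and 12.2 CPM (-1.83 ± 0.35, edgeR adjusted p = 0.0156) and lay within the WT range, as Dusp5 did. Dusp2 came down only part of the way, to 120 and 117 CPM (-1.57 ± 0.24, edgeR adjusted p = 0.00587), still above each WT library. Dusp4 went to 13.2 and 15.9 CPM (-1.17 ± 0.17, edgeR adjusted p = 0.00481) and Dusp10 to 28.5 and 33.1 CPM (-0.91 ± 0.21, edgeR adjusted p = 0.0284). For Dusp4 this is below all 3 WT libraries. Dusp1 was measured at 25.0 and 33.8 CPM, below both Lmo2Tg libraries, but with a wide interval from -4.50 to -1.12 and an edgeR adjusted p of 0.0531.

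Both Sprouty genes were also called lower, Spry2 only with all libraries in the fit, and their levels lay below those of every WT library, a comparison that was not tested. Spry1 was at 7.57 and 8.69 CPM (-1.96 ± 0.21, edgeR adjusted p = 0.00113) and Spry2 at 1.07 and 1.03 CPM (-1.95 ± 0.46, edgeR adjusted p = 0.0328). Neither Spred gene passed the test: Spred1 was at 51.1 and 46.9 CPM (interval -0.04 to 0.47) and Spred2 at 53.4 and 57.8 CPM (interval -0.12 to 0.29). With only 2 libraries a group, the count of calls over all genes tested fell in each fit with 1 library left out. The count of members called was fragile too. It was 5 without library L2 and 6 without L3, but 1 without Lmo2Tg;p21-/- replicate 1 and 4 without replicate 2. Spry1 was called in each of these 4 fits (edgeR adjusted p from 0.00396 to 0.0163) and Spry2 in none (0.0617 to 0.175). Dusp2, Dusp4 and Dusp5 lost their call without Lmo2Tg;p21-/- replicate 1 (edgeR adjusted p = 0.063, 0.0608 and 0.06). Of these fits, Dusp6 and Dusp10 were called only in that without library L3 (edgeR adjusted p = 0.029 and 0.0235), and Dusp1 only in that without L2 (0.0443). The log2 fold change of Dusp5 stayed between -3.20 and -2.86, that of Dusp2 between -1.60 and -1.55 and that of Spry1 between -2.08 and -1.88.

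Loss of p21 without the transgene gave no called member. In p21-/- against WT 0 of 10 members were called by edgeR, DESeq2 or limma-voom (edgeR called 0.11% of all genes tested, with 0.0507% higher and 0.0591% lower). Each tool gave 1 member with an unadjusted p below 0.05, which in edgeR was Dusp4, at a log2 fold change of 0.39. Of all 11840 genes tested, 391 had such a p by edgeR, 243 by DESeq2 and 383 by limma-voom. Dusp5 showed the spread that limits this comparison, with 33.0 CPM in p21-/- replicate 1 and 113 CPM in replicate 2, on either side of all WT libraries. Replicate 2 was above replicate 1 for all 10 members and for 13 of 14 immediate-early and stress genes, so the 2 p21-/- libraries differed across the whole loop. Intervals on the log2 scale ran from -0.50 to 1.18 for Dusp5, from -0.29 to 0.68 for Dusp2 and from -0.15 to 0.65 for Spry1.

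On the p21-/- background most members were not higher with the transgene. In Lmo2Tg;p21-/- against p21-/- cells, a comparison that shares no library with Lmo2Tg against WT, 1 member rose and 3 fell, where 16.3% of all genes tested were called higher and 14.4% lower (30.7% in all). Spred2 was the member that rose, from 38.3 and 43.3 CPM to 53.4 and 57.8 CPM (0.45 ± 0.09, edgeR adjusted p = 0.00467), next to 0.43 against WT. Spry1 fell 2.001-fold from 12.4 and 20.3 CPM (SE 0.21 on the log2 scale, edgeR adjusted p = 0.00445), Dusp4 from 22.1 and 28.5 CPM (-0.79 ± 0.17, edgeR adjusted p = 0.00569) and Spry2 from 2.29 and 5.44 CPM (-1.87 ± 0.46, edgeR adjusted p = 0.0112). Dusp2 was higher in both Lmo2Tg;p21-/- libraries than in both p21-/- libraries (50.6 and 96.9 CPM) with an edgeR adjusted p of 0.0509. Spry1 and Spred2 were called whichever library was left out. The calls of Dusp4 and Spry2 were lost without Lmo2Tg;p21-/- replicate 1 (adjusted p 0.0539 and 0.0614, edgeR) and without p21-/- replicate 2 (0.0565 and 0.115), and that of Spry2 also without Lmo2Tg;p21-/- replicate 2 (0.054). Without p21-/- replicate 1 Dusp5 was called lower (-1.06, edgeR adjusted p = 0.012), and without p21-/- replicate 2 Dusp2 was called higher (1.22, edgeR adjusted p = 0.00139).

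The difference between the effects of the transgene with and without p21 was tested as an interaction. It was below 0 for 9 of the 10 members, and 4 were called, all in that direction, where 1.38% of all genes tested were called in either direction and 1.1% lower. Dusp5 differed by -3.38 ± 0.57 on the log2 scale (edgeR adjusted p = 0.03), Spry1 by -2.21 ± 0.27 (0.0165), Dusp2 by -1.76 ± 0.32 (0.0332) and Dusp4 by -1.56 ± 0.23 (0.0236). Dusp6 (-2.19, edgeR adjusted p = 0.057) and Dusp10 (-1.22, edgeR adjusted p = 0.0654) missed the threshold, and the intervals of Spred1 (-0.35 to 0.34) and Spred2 (-0.26 to 0.30) lay around 0. Without WT replicate 1 or WT replicate 3 the count of calls was 0, as was that over all genes tested. In these fits edgeR gave 7 and 8 members with an unadjusted p below 0.05, beside 1823 of 11807 and 2346 of 11805 genes tested. The calls were also lost without Lmo2Tg;p21-/- replicate 1 or replicate 2, where the count over all genes fell too. The member count was lower without library L2 or p21-/- replicate 2 and higher without p21-/- replicate 1, as was that over all genes. Over all 9 such fits the estimate ranged from -4.01 to -2.23 for Dusp5, from -2.52 to -1.82 for Spry1, from -2.16 to -1.22 for Dusp2 and from -1.75 to -1.34 for Dusp4.

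Levels per kilobase of exon allow the members to be set against each other, as a description of transcript supply. In WT cells Dusp2 (32.1 ± 5.88 CPM per kb, SD) and Dusp5 (23.3 ± 5.64) led, and these neighbours lay within 2 SD of each other. Dusp1 (12.47 ± 10.5), Dusp10 (10.5 ± 2.29) and Spred2 (8.45 ± 0.302) followed, then Dusp4 (7.06 ± 0.371), Spred1 (6.02 ± 0.0684), Spry1 (4.72 ± 0.325) and Dusp6 (3.49 ± 1.34), with Spry2 (1.62 ± 0.43) last. Dusp1 overlapped every neighbour because of its spread. In Lmo2Tg cells Dusp5 (180 ± 30.6) and Dusp2 (175 ± 5.12) stood together well above Dusp1 (62.2 ± 39.1), and the remaining 7 members lay between 1.95 and 19.1 CPM per kb. In Lmo2Tg;p21-/- cells Dusp2 alone led (59.1 ± 1.22), ahead of Dusp5 (22.0 ± 1.51).

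The members moved in company with each other and with other ERK-dependent genes. Over the 9 genotype libraries log2 CPM of Dusp5 and Dusp6 had a Pearson r of 0.969, Dusp4 and Spry1 of 0.943 and Dusp2 and Dusp5 of 0.923, while Spred1 had no r above 0.35 with any other member. The 9 libraries share their group structure, so these values describe the group means as much as the libraries. The genes whose levels followed Dusp5 most closely were Pnrc1, Trib1 and Nr4a1 (r of 0.994, 0.994 and 0.992), and those closest to Dusp6 were Nr4a2, Fbrsl1 and Per1 (0.992, 0.988 and 0.984). Nr4a1 and Nr4a2 encode nuclear receptors induced by antigen receptor signals. For Dusp2 they were Dnajb4, Brd2 and Dnajb1 (0.993, 0.991 and 0.99), of which the Dnaj genes encode heat-shock co-chaperones, and for Spry1 Haus2, Srsf3 and Pim3 (0.991, 0.989 and 0.98). Spred2 kept other company, Fbln1, Axin2 and Rxra (0.988, 0.984 and 0.979). Over the 6 GFP libraries their r with Spred2 was 0.947, 0.892 and 0.943, whereas Trib1 and Nr4a1 had an r of -0.344 and -0.233 with Dusp5 and Pnrc1 one of 0.945.

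**Figure D3:**
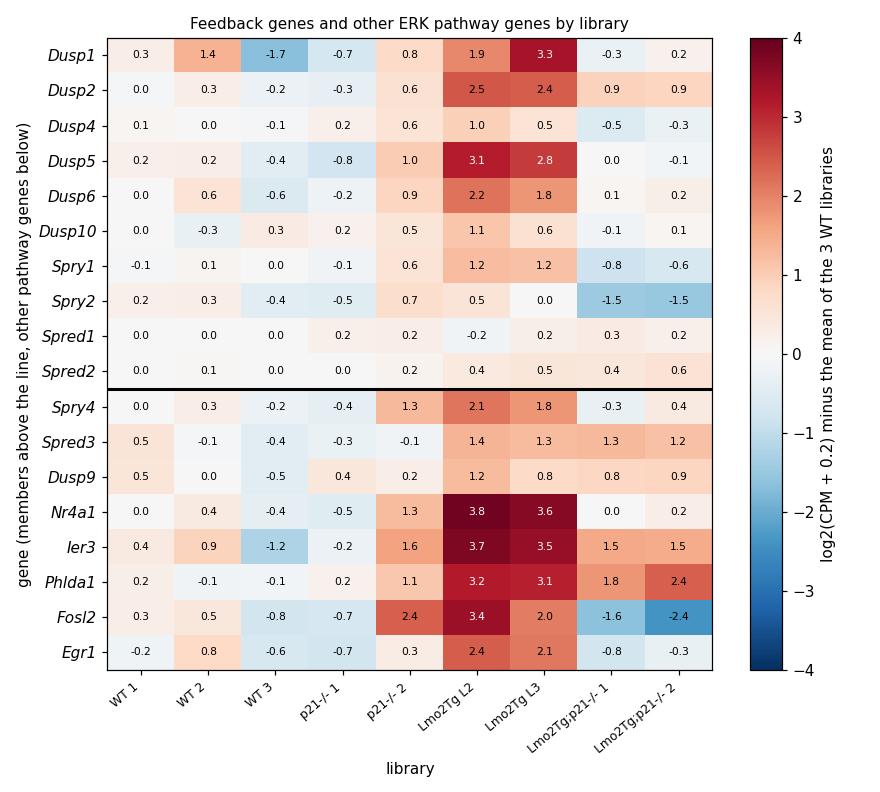
log2(CPM + 0.2) minus the mean of the 3 WT libraries, by library (columns) for the 10 feedback genes (above the line) and for the named genes of 2 other lists (below it), red higher and blue lower. Nr4a1 stands at 3.85 and 3.64 in the Lmo2Tg libraries and at 0.01 and 0.25 in the Lmo2Tg;p21-/- libraries, and p21-/- replicate 2 is above p21-/- replicate 1 for all members.

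Other genes of the pathway were read from lists that, like the members, were chosen with earlier results of these data known. Counts from these lists are therefore a description and no independent support. Of 16 ERK output genes, transcripts that ERK signalling is known to induce, 15 were tested, of which 6 rose and 3 fell in Lmo2Tg against WT. Of all genes tested, 19.7% were called higher and 16.9% lower in that comparison. Nr4a1 (log2 fold change 3.73, edgeR adjusted p = 2.87e-05), the survival gene Ier3 (3.50, edgeR adjusted p = 0.000326), Phlda1 (3.25, edgeR adjusted p = 9.26e-06) and the AP-1 subunit Fosl2 (2.84, edgeR adjusted p = 0.00788) changed most, and the call of Fosl2 was lost without library L2 (2.00, edgeR adjusted p = 0.0859). On the p21-/- background 1 of the 15, Phlda1, was called higher and 3 were called lower (16.3% and 14.4% of all genes tested). Relative to the WT mean on the log2 scale, the Lmo2Tg;p21-/- libraries stood at 1.76 and 2.38 for Phlda1 and 1.51 and 1.48 for Ier3. They stood at 0.01 and 0.25 for Nr4a1, -1.63 and -2.38 for Fosl2 and -0.75 and -0.31 for Egr1. In Lmo2Tg;p21-/- against Lmo2Tg 7 of the 15 fell and none rose, led by Fosl2 (-5.09), Nr4a1 (-3.62), Egr1 (-2.78) and Ier3 (-2.16), with edgeR adjusted p from 0.00216 to 0.0316. Of all genes tested, 3.59% were called lower there. With each library left out in turn, Nr4a1 was called in all 4 fits (edgeR adjusted p from 0.00451 to 0.039) and Ier3 in none (0.0769 to 0.176). Egr1 lost its call without Lmo2Tg;p21-/- replicate 1 (edgeR adjusted p = 0.0777), and Fosl2 without replicate 1 or replicate 2 of that group (0.108 and 0.0764).

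The kinases and adaptors of the cascade itself form a separate list. Of 17 genes from RAS to ERK, 3 rose and 2 fell in Lmo2Tg against WT, among them the adaptor Grb2 (0.91, edgeR adjusted p = 3.5e-06), the RAS activator Rasgrp1 (0.69, edgeR adjusted p = 0.000189) and Rras2 (-0.99, edgeR adjusted p = 0.000159). The 17 were called no more often than genes at large, of which 36.6% were called in this comparison. Between Lmo2Tg;p21-/- and Lmo2Tg edgeR called 0 of the 17, where 6.94% of all genes tested were called. In that fit 1 of the 17 had an unadjusted p below 0.05 (edgeR), as did 3023 of all 11840 genes tested. On the p21-/- background Grb2 (1.002, edgeR adjusted p = 4.51e-06), Rasgrp1 (0.82, edgeR adjusted p = 0.000133) and Rras2 (-0.63, edgeR adjusted p = 0.00462) were called in the same directions. Of 15 other negative regulators 6 rose and 2 fell in Lmo2Tg against WT, beside 19.7% higher and 16.9% lower of all genes tested. Errfi1, an inhibitor of the EGF receptor, behaved like the Dusp genes, with 1.06 against WT (edgeR adjusted p = 0.00214) and -1.60 in Lmo2Tg;p21-/- against Lmo2Tg (edgeR adjusted p = 0.00469; 0.0603 without Lmo2Tg;p21-/- replicate 1). Rasa3, which returns RAS to its inactive form, rose by 0.99 against WT and by 1.53 on the p21-/- background (edgeR adjusted p = 1.99e-05 and 2.45e-06).

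Relatives of the 10 were examined as a list of their own. Of 7 other typical MAP kinase phosphatase, Sprouty and Spred genes 5 were tested, of which 3 rose and none fell in Lmo2Tg against WT. In that comparison 19.7% of all genes tested were called higher and 16.9% lower. Spry4 rose by 2.20 (edgeR adjusted p = 0.0043), at 0.735, 0.954 and 0.605 CPM in WT and 3.99 and 3.08 CPM in Lmo2Tg, and fell by 2.11 in Lmo2Tg;p21-/- against Lmo2Tg (edgeR adjusted p = 0.0406). That fall was called in none of the 4 fits with 1 library left out (edgeR adjusted p from 0.0811 to 0.251). Spred3, at 3.92 and 3.62 CPM in Lmo2Tg, rose by 1.36 against WT (edgeR adjusted p = 0.00467) and by 1.57 on the p21-/- background (edgeR adjusted p = 0.00545). Like Spred2 it was thus called higher with the transgene whether or not p21 was present. In the p38 and JNK cascade 7 of the 14 genes tested rose and none fell against WT, including Gadd45b (2.25), Gadd45g (2.14) and Gadd45a (1.57), stress-induced activators of that branch, with edgeR adjusted p from 0.000985 to 0.00857. The call of Gadd45g was lost without library L3 (1.86, edgeR adjusted p = 0.0546).

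Immediate-early and stress genes, which handling of cells can also raise, moved together with the loop. Of 14 such genes, 4 of which are also on the ERK output list, 6 rose and none fell in Lmo2Tg against WT, and 6 fell and none rose in Lmo2Tg;p21-/- against Lmo2Tg. Of all genes tested, 19.7% were called higher against WT and 3.59% lower in Lmo2Tg;p21-/- against Lmo2Tg. Their summed level was 4231 and 6038 CPM in Lmo2Tg, 2611 to 4176 in WT, 3032 and 3672 in p21-/- and 2282 and 2801 in Lmo2Tg;p21-/- libraries, with at most 1 of the 14 at 0 in a library. Within WT, replicate 2 was the highest library for 7 of the 10 members and 11 of the 14 stress genes, and replicate 3 the lowest for 6 and 12. Their order differed in Lmo2Tg, where library L2 was the higher for 7 members and L3 for 11 stress genes. The part of this in the results was not tested. Cell type markers also differed with the transgene. Of the 10 DN3 markers 6 were called lower and 2 higher in Lmo2Tg against WT, where 36.6% of all genes tested were called (16.9% lower). Rag2 (-2.33), Ptcra (-1.90) and Cd3g (-1.56) were among those lower and Hes1 (1.21) among those higher, with edgeR adjusted p from 1.82e-06 to 0.0107. Summed levels of the 10 were 5285 to 6161 CPM in the 4 transgenic libraries and 7411 to 7920 CPM in the others. Of 7 markers of double-positive or later thymocytes 2 were called higher, Cd8a (1.96, edgeR adjusted p = 0.000443) and Cd8b1 (0.89, edgeR adjusted p = 0.0188). Lower were 3, among them Ccr9 (-3.63, edgeR adjusted p = 3.3e-07) and Ccr7 (-1.02, edgeR adjusted p = 0.0145). The 8 B-lineage markers summed to 32.5 to 37.9 CPM with the transgene and 55.4 to 68.1 CPM without it, and 8 epithelial or stromal genes to 432.0 to 649.7 and 257.6 to 277.1 CPM. Called among the tested genes of these lists were 2 of 5 B-lineage (both lower), 3 of 4 epithelial or stromal (2 higher), 2 of 7 myeloid (1 higher), 2 of 2 dendritic (1 higher), 1 of 4 erythroid and 1 of 3 NK and innate-like genes (both higher). Myeloid (17.03 to 33.9 CPM), dendritic (6.28 to 15.2 CPM) and erythroid markers (1.57 to 28.7 CPM) were low in all 9 libraries, the highest erythroid sum being that of p21-/- replicate 2. At most 4 genes of a marker list were at 0 in a library. Their part in the results was not tested. In bulk RNA fewer cells that express a gene and less RNA per cell cannot be told apart.

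Label retention was compared next, to ask whether slowly dividing Lmo2Tg cells differ in feedback transcripts from those that divided. With all 6 libraries 0 of the 9 members tested were called by edgeR, where 14.9% of all 11581 genes tested were called in either direction, 5.37% higher and 9.49% lower. DESeq2 and limma-voom also called none. An unadjusted p below 0.05 was found for 2 of the 9 by edgeR (Dusp10 and Spred1), 4 by DESeq2 and 2 by limma-voom. Over all 11581 genes tested it was found for 3871 by edgeR, 4121 by DESeq2 and 3905 by limma-voom. The summed level of the 10 was 488.5 to 535.8 CPM in GFPhi and 473.0 to 548.3 CPM in GFPlo libraries.

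**Figure D4:**
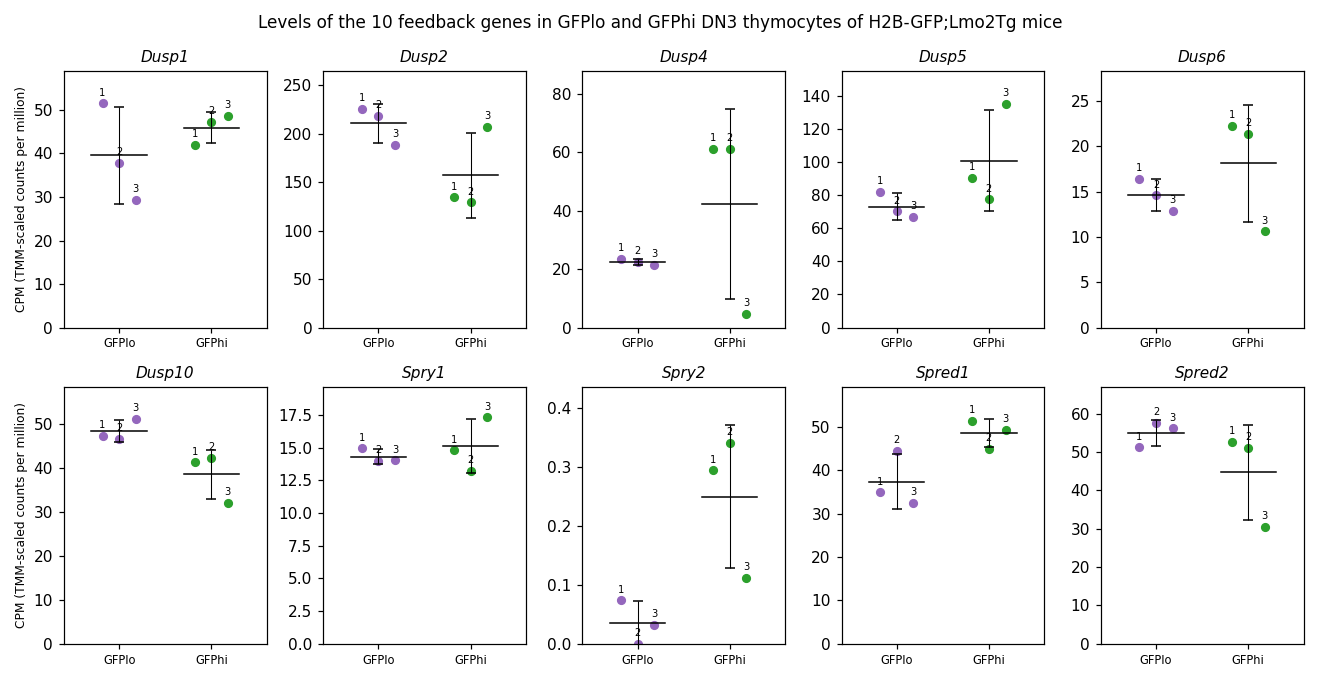
TMM-scaled CPM (vertical axis, from 0) of the 10 feedback genes in GFPlo and GFPhi libraries. Points are libraries with their replicate number, lines are group means and bars are SD. Dusp4 was at 61.2 and 61.2 CPM in GFPhi replicates 1 and 2 and at 4.62 CPM in replicate 3, on either side of the GFPlo libraries at 21.5 to 23.6 CPM.

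Dusp4 shows what GFPhi replicate 3 does to this comparison. It was at 61.2, 61.2 and 4.62 CPM in GFPhi and at 23.6, 22.6 and 21.5 CPM in GFPlo, so that the odd library lay below and the others above every GFPlo library. Without GFPhi replicate 3, 4 members were called, 2 in each direction, where 41.3% of all 11745 genes tested were called (19.5% higher and 21.7% lower), so the members were called about as often as genes at large. Dusp4 was then 2.73-fold higher (1.45 ± 0.06, edgeR adjusted p = 6.1e-05) and Dusp6, at 22.3 and 21.4 CPM against 12.9 to 16.4, was 1.501-fold higher (0.59 ± 0.11, edgeR adjusted p = 0.00732). Dusp2 was lower, at 134 and 129 CPM against 226, 218 and 188 CPM (-0.67 ± 0.08, edgeR adjusted p = 0.00138), and GFPhi replicate 3 was at 208 CPM. Dusp10 was slightly lower, at 41.3 and 42.4 CPM against 47.5, 46.7 and 51.3 CPM (-0.21 ± 0.07, edgeR adjusted p = 0.0446), and in replicate 3 at 32.2 CPM.

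The other members tested were not called with or without GFPhi replicate 3. Dusp5 was at 90.3, 77.4 and 135 CPM in GFPhi and 82.1, 70.2 and 66.8 CPM in GFPlo, with an interval on the log2 scale from -0.06 to 0.99 for the 6 libraries and from -0.05 to 0.46 without GFPhi replicate 3. For Spry1, at 13.2 to 17.3 CPM against 13.97 to 14.9 CPM, the interval was -0.24 to 0.39 (-0.25 to 0.20 without that library), and for Dusp1, at 42.0 to 48.6 CPM against 29.3 to 51.5 CPM, it was -0.28 to 0.71 (-0.33 to 0.69). Spred1 was higher in each GFPhi library (51.4, 45.0 and 49.4 CPM) than in GFPlo (35.0, 44.6 and 32.6 CPM), a log2 difference of 0.38 with an edgeR adjusted p of 0.107 (0.37 and 0.0691 without replicate 3). Spred2 lay at 52.7, 51.1 and 30.5 CPM in GFPhi and 51.3 to 57.7 CPM in GFPlo (interval -0.81 to 0.21, and -0.25 to 0.09 without replicate 3). Spry2 was left out of the fit for low counts, with 8, 10 and 3 reads in GFPhi (0.112 to 0.341 CPM) and 2, 0 and 1 reads in GFPlo (0 to 0.074 CPM), the latter all under the floor of 3 counts.

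The median of all chromosome 2 genes, which carry Dusp2 and Spred1, was -0.18 in this comparison, and that of chromosome 17 genes, with Dusp1, was -0.15. Relative to its own chromosome Dusp2 was at -0.25 and Spred1 at 0.56. Whether copy number has a part in these values was not tested.

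Of the 5 relatives of the 10 tested, 3 were called lower and none higher (9.49% and 5.37% of all genes tested). Dusp7 was slightly lower (-0.41 ± 0.10, edgeR adjusted p = 0.0476) and was called in 1 of 6 fits with a library left out. The differences of Dusp9 and Spred3 were larger and steadier. Dusp9, an ERK phosphatase of the cytoplasm, was at 0.478, 0.683 and 0.41 CPM in GFPhi and at 8.51, 8.49 and 8.82 CPM in GFPlo (-4.02 ± 0.23, edgeR adjusted p = 0.00143). Spred3 was at 0.404, 0.785 and 0.559 CPM against 5.14, 5.87 and 4.99 CPM (-3.18 ± 0.28, edgeR adjusted p = 0.00271). In both genes GFPhi replicate 3 lay with the other GFPhi libraries, and without it the log2 fold changes were -3.87 and -3.14 (edgeR adjusted p = 7.51e-05 and 0.000429). Errfi1 was higher in GFPhi, at 9.52, 7.03 and 9.50 CPM against 2.88, 2.45 and 2.80 CPM (1.68 ± 0.18, edgeR adjusted p = 0.00493), as was the ERK target Egr1 (1.90 ± 0.32, edgeR adjusted p = 0.017; 0.0943 without GFPlo replicate 2 and 0.0848 without GFPlo replicate 3). Without GFPhi replicate 3 these were 1.61 for Errfi1 and 2.17 for Egr1 (edgeR adjusted p = 0.000926 and 0.0002).

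The lists of pathway genes were counted in the same way. With all 6 libraries edgeR called 2 of 13 ERK output genes higher and none lower, 2 of 17 genes from RAS to ERK higher and 1 lower, and 3 of 13 immediate-early and stress genes higher and 2 lower. Over all genes tested 14.9% were called, 5.37% higher and 9.49% lower. Without GFPhi replicate 3 these were 6 higher and 2 lower, 8 higher and 1 lower, and 4 higher and 2 lower, where 41.3% of all genes tested were called. Of 8 B-lineage markers 5 were called higher and none lower, with a median log2 fold change of 4.49 (6 higher and a median of 4.68 without GFPhi replicate 3). Cd74, the invariant chain of MHC class II, was at 13.7, 57.4 and 16.4 CPM in GFPhi and 0.296, 0.419 and 0.419 CPM in GFPlo (6.25 ± 0.75, edgeR adjusted p = 0.00645). Pax5, the B-cell identity factor, was at 1.25, 5.94 and 1.53 CPM in GFPhi and at most 0.0966 CPM in GFPlo. The stress genes summed to 1709 to 2011 CPM in GFPhi and 1156 to 1365 CPM in GFPlo, the B-lineage markers to 61.3 to 137.6 and 41.6 to 45.8 CPM, and 6 NK and innate-like markers to 170.2 to 196.7 and 89.7 to 110.7 CPM, with at most 2 genes of a list at 0 in a library. The 8 epithelial or stromal genes summed to 1015 CPM in GFPhi replicate 3 and 387.3 to 674.5 CPM in the other 5 libraries. Their part in these results was not tested.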

How the data were processed

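Poly-A RNA-seq libraries of DN3 thymocytes were used, 9 from the genotypes and 6 from GFPhi or GFPlo cells. The authors deposited raw read counts per gene, not normalized, in a separate table for each experiment (22114 genes, of which 98.6% matched GENCODE M21 on GRCm38 by identifier). The submitters' processing notes name STAR 2.4.2a, featureCounts, limma and mm10, without their roles. Whether counting used strand is not given in the sources used here. Of 10 numeric columns in the genotype file, 1, named like a further Lmo2Tg;p21-/- library, matched no sample label and was not used, and p21-/- replicate 3 was not analysed here. The columns L2 and L3 were taken as Lmo2Tg by group only, because these names are also the descriptions of 2 GFPlo samples, which have columns of their own in the other table. Replicates differed by more than sampling noise.

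From the deposited counts, genes were kept by filterByExpr (minimum count 10, minimum total 15), scaled by TMM and tested with the edgeR 4.0.16 quasi-likelihood test (R 4.3.3) with Benjamini-Hochberg adjustment over all genes tested, called at 0.05. The 4 genotypes were fitted together, GFPhi and GFPlo apart, and no test crosses the tables. Intervals are 95% intervals of the fit. With 2 or 3 libraries a group, p-values measure the spread between pools of mice. The floor of 3 counts covers counting error only. CPM per kb used the summed exon length of GENCODE M21. Members, lists and tests were chosen with earlier results of these data known. Named were all members, of each list up to 4 called genes with the largest fold change at 1 CPM or more on average, the 3 genes most alike each member (10 CPM or more), Cdkn1a and Lmo2. Genes that the text singles out beyond these were chosen after their values were seen. For 1 marker gene the result is not reported here.

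Replicate numbers were checked for pairing by the correlation of deviations from group means, which was 0.0702, -0.0793 and 0.0989 for GFPhi with GFPlo and -0.237 and 0.303 for WT with p21-/-, so they were not used as a block. The alternatives were RLE scaling, DESeq2 1.42.0, limma-voom (limma 3.58.1), no filter, thresholds of 2-fold and FDR of 0.01 (GFP) or 0.05 (genotypes), scaling without chromosomes 2 and 15, the chromosome median taken off, the compared groups alone, the replicate block and each library left out. A library that was left alone in its group was assumed to vary like the other groups. The fit was tested on simulated data. Figures were drawn with matplotlib 3.10.9.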

Additional observations from a re-analysis of the deposited data

Results flagged for a closer look

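The effect of the Lmo2 transgene differed between cells with and without p21, by the interaction term of the edgeR fit, for 4 members: Dusp5 (-3.38 on the log2 scale), Spry1 (-2.21), Dusp2 (-1.76) and Dusp4 (-1.56). The same term was called for the ERK output genes Fosl2 (-6.60) and Nr4a1 (-4.23), for Errfi1 (-1.95), for the p38 kinase kinase Map2k3 (-0.93), for the chaperone genes Dnajb1 (-0.79) and Hspa8 (-0.66), and for Cdkn1a itself (-1.56). Cdkn1a is the gene lost in p21-/- mice. Its term rests in part on reads that remain there and cannot show how p21 alters the transgene effect. Fosl2 was at 2.81 CPM in p21-/- replicate 1 and 25.2 CPM in replicate 2, and at 1.36 and 0.725 CPM in the Lmo2Tg;p21-/- libraries. None of the 11 was called without Lmo2Tg;p21-/- replicate 1, Lmo2Tg;p21-/- replicate 2, WT replicate 1 or WT replicate 3, and each kept its direction in all 9 such fits.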

How the results depend on the processing

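The count of members called was unchanged or within 1.5 times of the value reported under RLE scaling, limma-voom and scaling without chromosomes 2 and 15 in all 6 comparisons. With the thresholds of 2-fold and FDR it was 5 for Lmo2Tg against WT and 2 for Lmo2Tg;p21-/- against p21-/-. For the interaction it was 7 with DESeq2 and 8 with no filter. With each library left out it ranged from 0 to 4 for GFPhi against GFPlo, 7 to 8 for Lmo2Tg against WT, 2 to 5 for Lmo2Tg;p21-/- against p21-/-, 1 to 6 for Lmo2Tg;p21-/- against Lmo2Tg and 0 to 7 for the interaction. The cause was not tested.

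Of the named values, those that changed sign under an alternative were not called in the report. With a library left out, log2 fold changes ranged from -0.0258 to 0.167 for Spry1 in GFPhi against GFPlo, from -0.0116 to 0.504 for Spry2 and -0.16 to 0.23 for Spred1 in Lmo2Tg against WT, and in Lmo2Tg;p21-/- against p21-/- from -0.0359 to 0.0918 for Spred1, -0.78 to 0.68 for Dusp1, -1.06 to 0.72 for Dusp5 and -0.71 to 0.35 for Dusp6. In p21-/- against WT they ranged from -1.17 to 0.58 for Dusp1, -0.35 to 0.59 for Dusp2, -0.81 to 0.97 for Dusp5, -0.26 to 0.80 for Dusp6, -0.14 to 0.56 for Spry1, -0.56 to 0.68 for Spry2 and -0.0286 to 0.143 for Spred2, and in the interaction from -0.19 to 0.19 for Spred1 and -0.0651 to 0.111 for Spred2. Dusp1 was at 0.024 with limma-voom in p21-/- against WT, and Spred1 at 0.0021 with no filter in the interaction. With the replicate block Dusp5 was at -0.0518 and Spry2 at -0.0866 in p21-/- against WT. The block called 0 members in either comparison where it could be fitted and 496 genes for GFPhi against GFPlo, where 1721 were called without it; samples with the same number were not shown to be paired.

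Counts over all genes moved more. They were 2912 with DESeq2, 261 with the 2-fold and FDR thresholds and 273 to 4848 with a library left out for GFPhi against GFPlo (1721 as reported), 1420 with those thresholds and 2815 to 3836 for Lmo2Tg against WT (4329), and 1230 and 1914 to 3179 for Lmo2Tg;p21-/- against p21-/- (3639). They were 222 with the thresholds, 404 with the compared groups alone and 60 to 514 with a library left out for Lmo2Tg;p21-/- against Lmo2Tg (822), 457 with DESeq2, 520 with no filter, 95 with the thresholds and 0 to 449 for the interaction (163), and 20 with DESeq2, 21 with no filter and 8 to 18 for p21-/- against WT (13). Groups of 2 libraries limit every comparison of p21-/- or Lmo2Tg cells, and the depth limits Spry2 in the GFP libraries.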
